A study of Mus musculus with 6 samples.

Results

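The genes of the TCA cycle and of fatty acid oxidation were followed in C2C12 cells, a line of mouse myoblasts that leaves the cell cycle when serum is withdrawn and builds multinucleated myotubes by fusion. The 42 genes were taken from a list by gene symbol, and all 42 were found among the 25308 genes with a count in any library. RNA was sequenced from 6 libraries, with 2 of proliferating myoblasts harvested at about 95% confluency, 2 of myotubes and 2 of reserve cells, which stay mononucleated. The myotubes and the reserve cells had both spent 7 days in DMEM with 2% horse serum by the series text, and mild trypsinization separated one from the other. The culture methods of the study give a shorter time for obtaining both, so the length of the treatment is uncertain. The myoblasts had no differentiation time. All libraries came from 1 cell line, without any transgene or drug. The series text speaks of biological replicates, but no label says whether they came from separate cultures, so a p-value here measures the spread between these samples, which may be technical.

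In the mitochondrial matrix the pyruvate dehydrogenase complex turns pyruvate into acetyl-CoA, and dedicated kinases switch the complex off by phosphorylation. Fatty acids enter as carnitine esters and are shortened to acetyl-CoA by repeated rounds of dehydrogenation, hydration, dehydrogenation and thiolysis. The TCA cycle oxidizes the acetyl group and feeds electrons to the respiratory chain, and adult skeletal muscle relies on both routes for sustained contraction.

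Library totals ranged from 15658875 to 20055078 estimated counts. The factors that scale each library to a common size by the trimmed mean of M values (TMM) lay between 0.889 in a myotube library and 1.09 in a myoblast library. Levels are given below in CPM, counts brought to a common library size with these factors, and differences as log2 fold changes of edgeR with their SE. The summed CPM of 18 myotube markers was 579 and 592 in myoblasts, 54659 and 54154 in myotubes and 13247 and 13879 in reserve cells. Single myotube markers stood in reserve cells at 15% to 44.9% of their myotube level (median 22.9%), so myotube genes were also read in the reserve cell libraries. The summed level of 10 cycling cell genes was 2239 and 2294 CPM in myoblasts, 231 and 252 CPM in myotubes and 998 and 988 CPM in reserve cells, and that of 10 fibroblast genes was 10723 and 10720 CPM, 3812 and 3980 CPM, and 19854 and 20276 CPM. The summed level of 10 satellite cell genes was 904 and 922 CPM, 448 and 448 CPM, and 939 and 942 CPM. Of 10 adipocyte markers 6 were at 0 in every library (Adipoq, Plin1, Cidec, Lep, Retn and Cfd), as were all 4 hepatocyte markers, Ucp1 and Prdm16 of 5 brown adipocyte markers and Ptprc and Adgre1 of 5 macrophage markers. The other markers of these lists were not all silent. Dio2, a deiodinase of the brown adipocyte list, was at 7.70 and 9.41 CPM in myoblasts, 176 and 197 CPM in myotubes and 138 and 142 CPM in reserve cells, and made up nearly all of that list's sum. The adipocyte list summed to 59.3 and 57.8 CPM, 21.8 and 18.8 CPM, and 56.7 and 50.2 CPM in the same order, most of it from Cebpa except in the myotube libraries, and the macrophage list to between 2.02 and 3.92 CPM. Mitochondrially encoded transcripts took 1.89% to 5.37% of the counts, with the most in the myotube libraries. The part of these shifts in the results below was not tested, and fewer cells of a type and less RNA per cell cannot be told apart.

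All 42 genes passed the filter on low counts. In myotubes 27 of them were higher and 8 were lower than in myoblasts, and 7 did not pass the test at an adjusted p of 0.05. Across the 15467 genes tested, 65.3% were called in this comparison, 32.6% as higher and 32.7% as lower. The median log2 fold change was 0.53 for the 42 genes and 0.0045 for all genes tested. When libraries were scaled by their totals alone, the median of all genes moved to −0.27, that of the 42 genes to 0.25, and the split of the 42 genes to 20 higher and 11 lower. Changes of at least 2-fold were called in 9 genes as higher and in 5 as lower. The share of all genes tested with changes of that size was not counted, so these numbers have no baseline.

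Reserve cells differed less from myoblasts. There 12 genes were higher, 13 were lower and 17 did not pass, where 46.1% of all genes tested were called, 24.3% as higher and 21.8% as lower. The median was −0.04 for the 42 genes and 0.01 for all genes. Only Pdk2 and Pdk1 were called as higher and Cpt1a as lower by at least 2-fold. Here too the share of all genes at that size was not counted. Against reserve cells, 30 genes were higher in myotubes, 8 were lower and 4 did not pass, while 55.6% of all genes were called, 27.2% as higher and 28.4% as lower, with medians of 0.56 and −0.0067. With library totals the median of the 42 genes in that comparison was 0.36. The 3 comparisons share their libraries, so they are not independent of each other.

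**Figure D1:**
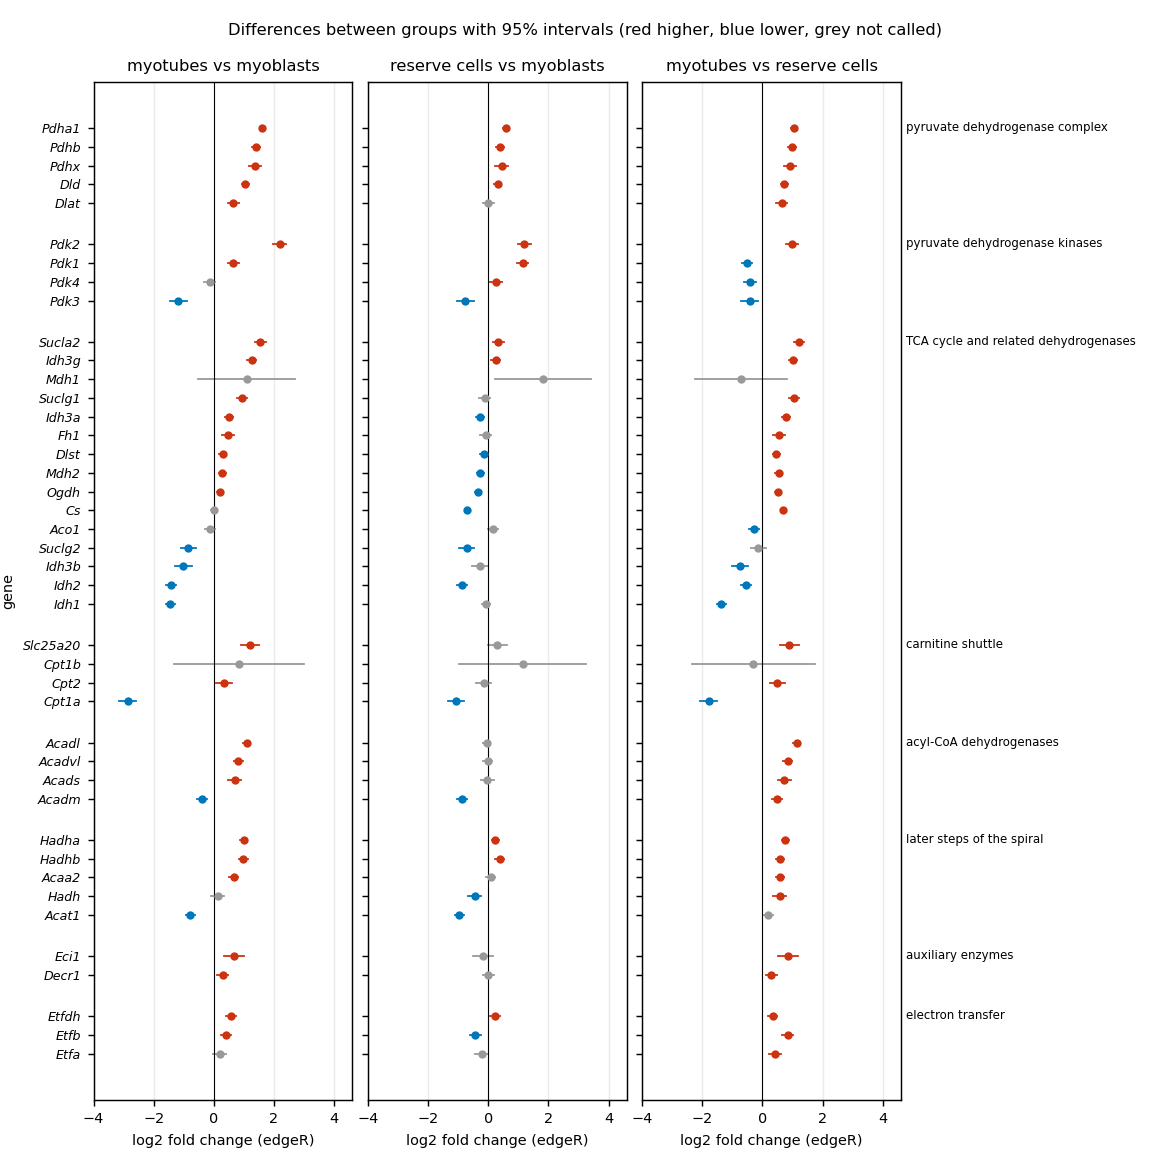
Log2 fold change (horizontal axis, edgeR) of each of the 42 genes, grouped by role, in the 3 comparisons, with 95% intervals that are not adjusted for the number of genes. Red points were called as higher, blue as lower and grey as not called at an adjusted p of 0.05. All 5 genes of the pyruvate dehydrogenase complex lie to the right of 0 in myotubes against myoblasts, Cpt1a lies at −2.87, and the intervals of Mdh1 and Cpt1b are the widest.

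Levels of different genes were compared as TPM, in which counts are divided by transcript length before they are scaled to a common total. These values lack the TMM factors, so folds are given on the CPM scale only. Mdh2, the mitochondrial malate dehydrogenase, was the most abundant of the 42 in myoblasts (461 and 484 TPM) and in reserve cells (381 and 401 TPM). In myotubes Pdha1 ranked above it, at 467 and 476 TPM against 445 and 419 TPM for Mdh2. In myoblasts Pdha1 had ranked 6 of 42, at 200 and 213 TPM. Citrate synthase, encoded by Cs, ranked 2 in myoblasts and 3 in the other groups. Cpt1b was the least abundant in every group, from 0.497 to 2.6 TPM. The 42 genes together made up 4593 and 4709 TPM in myoblasts, 4815 and 4824 TPM in myotubes and 4231 and 4312 TPM in reserve cells.

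**Figure D2:**
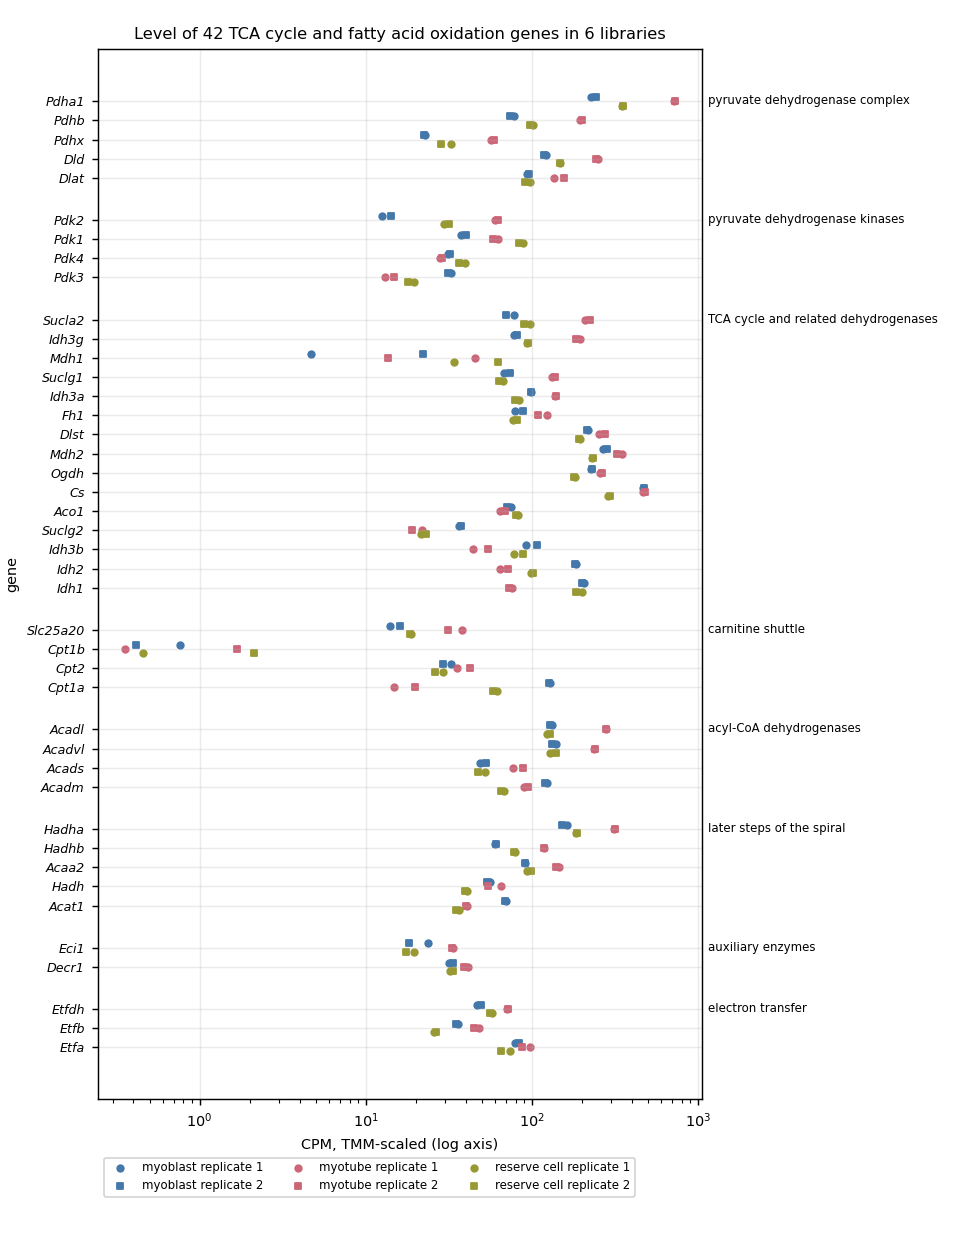
Level of each of the 42 genes in each of the 6 libraries, in CPM on a log axis, grouped by role and ordered within a role by the difference between myotubes and myoblasts. Circles are replicate 1 and squares replicate 2. The replicates lie close together for most genes, and Mdh1 and Cpt1b are the genes in which they spread by more than 2-fold in at least 1 group.

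The pyruvate dehydrogenase complex rose as a group in myotubes. All 5 of its genes were higher than in myoblasts, by a median of 1.37 on the log2 scale, and all 5 were higher than in reserve cells, by a median of 0.92. In reserve cells against myoblasts 4 of 5 were higher and none lower, by a median of 0.39. For comparison, 32.6% of all genes tested were called as higher in myotubes against myoblasts and 27.2% in myotubes against reserve cells. In reserve cells against myoblasts 24.3% of all genes were higher and 21.8% lower. Pdha1 encodes the alpha subunit of the decarboxylase that starts the reaction. It stood at 229 and 243 CPM in myoblasts, 721 and 723 CPM in myotubes, and 349 and 354 CPM in reserve cells. Myotubes were highest, reserve cells lay between, and no group overlapped another. The rise in myotubes over myoblasts was 3.06-fold (log2 fold change 1.61 ± 0.04, edgeR adjusted p = 9.81e-09), and that in reserve cells 1.49-fold (0.57 ± 0.04, adjusted p = 1.19e-05). Pdha1 shares 603 of its 3734 exon bases with Map3k15 on the opposite strand, whose counts moved the same way (751 and 988 for myoblasts, 1985 and 2402 for myotubes, 1156 and 1074 for reserve cells). Whether the counting used strand is not stated in the sources used here, so reads in that stretch cannot be told apart.

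Pdhb, the beta subunit of the same decarboxylase, stood at 78.0 and 73.8 CPM in myoblasts, 196 and 201 CPM in myotubes and 101 and 98.0 CPM in reserve cells. Pdhx, which anchors the third enzyme to the core, was at 22.8 and 22.3 CPM, 57.1 and 59.2 CPM, and 32.8 and 28.6 CPM. Both genes kept the order of Pdha1, without overlap between groups. In myotubes Pdhb rose 2.62-fold (1.39 ± 0.06, edgeR adjusted p = 1.56e-07) and Pdhx 2.58-fold (1.37 ± 0.09, adjusted p = 2.28e-06). Dld, the dihydrolipoamide dehydrogenase that this complex shares with α-ketoglutarate dehydrogenase, rose 2.05-fold. Dlat, the acetyltransferase of the core, rose 1.56-fold in myotubes over myoblasts, and in reserve cells its difference from myoblasts had a 95% interval of −0.18 to 0.18. Per length, the 5 genes summed to 527 and 534 TPM in myoblasts, 994 and 1021 TPM in myotubes and 691 and 694 TPM in reserve cells.

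The kinases that inactivate the complex moved apart from each other. Pdk2, the kinase widely expressed in muscle, was at 12.6 and 14.3 CPM in myoblasts, 60.1 and 62.2 CPM in myotubes and 29.8 and 31.8 CPM in reserve cells. It had the largest rise of the 42 genes in myotubes over myoblasts, 4.54-fold (2.18 ± 0.09, edgeR adjusted p = 1.57e-07), and it rose 2.28-fold in reserve cells (1.19 ± 0.09, adjusted p = 1.7e-05). Pdk3 went the other way, from 32.5 and 31.3 CPM in myoblasts to 13.2 and 14.8 CPM in myotubes and 19.7 and 18 CPM in reserve cells. Its fall was −1.19 ± 0.12 in myotubes and −0.76 ± 0.12 in reserve cells (edgeR adjusted p = 3.58e-05 and 0.000932).

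Pdk1, a kinase known as a target of hypoxia signalling, was highest in reserve cells. Its level was 37.2 and 40.3 CPM in myoblasts, 62.4 and 58.2 CPM in myotubes and 88.0 and 84.1 CPM in reserve cells, with no overlap between groups. It was higher in both other groups than in myoblasts (by 0.64 ± 0.08 for myotubes and 1.15 ± 0.08 for reserve cells), and lower in myotubes than in reserve cells (−0.51 ± 0.08, edgeR adjusted p = 0.000591). Pdk4, which is induced by fasting in muscle, stood at 31.1 and 32.1 CPM in myoblasts, 28.2 and 28.9 CPM in myotubes and 39.4 and 36.4 CPM in reserve cells. Its rise in reserve cells over myoblasts was 0.26 ± 0.08 (edgeR adjusted p = 0.0292), and in DESeq2 that adjusted p was 0.182. Without any 1 of the 4 libraries compared, this call for Pdk4 was also lost, with adjusted p from 0.056 to 0.208.

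The make-up of the kinase pool differed between the groups. Of the TPM of all 4 kinases, Pdk3 held 41.2% and 38.5% in myoblasts, 11.9% and 12.9% in myotubes, and 17.8% and 17.0% in reserve cells. Pdk2 held 14.9% and 16.6% in myoblasts but 50.2% and 50.9% in myotubes, and 25% and 27.8% in reserve cells. The largest share in reserve cells belonged to Pdk1, with 35.6% and 34.5% against 19.9% and 20.9% in myoblasts and 22.7% and 21.1% in myotubes. Pdk4 held 24% in both myoblast libraries, 15.2% and 15.1% in myotubes, and 21.5% and 20.6% in reserve cells. Thus Pdk3 led in myoblasts, Pdk2 in myotubes and Pdk1 in reserve cells, in both libraries of each group. No test was run on these shares, and an exact permutation test of 2 libraries against 2 cannot reach 0.05. Without division by length Pdk1 came before Pdk3 in myoblasts, with a mean of 33.5% against 27.6%, and in myotube replicate 1 Pdk1 came before Pdk2, with 38.1% against 36.7%.

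**Figure D3:**
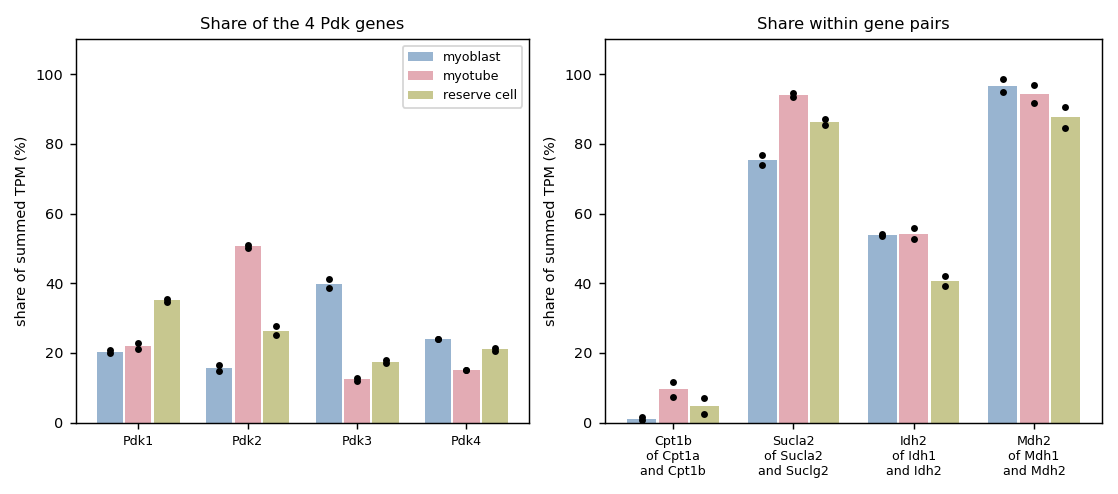
Share of summed TPM (vertical axis, percent) held by each of the 4 Pdk genes (left) and by 1 gene of each of 4 pairs (right), in myoblasts, myotubes and reserve cells. Bars are means of 2 libraries and points the single libraries. Pdk3 leads in myoblasts, Pdk2 in myotubes with 50.2% and 50.9%, and Pdk1 in reserve cells.

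Among the 15 genes of the TCA cycle and related dehydrogenases, 8 were higher and 4 lower in myotubes than in myoblasts, by a median of 0.28. In reserve cells 2 were higher and 7 lower than in myoblasts, by a median of −0.15. In myotubes against reserve cells 9 were higher and 4 lower, by a median of 0.53. Of all genes tested, 32.6% were called as higher and 32.7% as lower in myotubes against myoblasts. The shares were 24.3% and 21.8% in reserve cells against myoblasts, and 27.2% and 28.4% in myotubes against reserve cells. Per length, the 15 genes summed to 2431 and 2577 TPM in myoblasts, 2098 and 2100 TPM in myotubes and 2050 and 2122 TPM in reserve cells. That sum was thus lower in myotubes than in myoblasts, on a scale without the TMM factors. The largest rises in myotubes were those of Sucla2 and Idh3g. Sucla2, the ADP-forming beta subunit of succinyl-CoA synthetase, stood at 78.1 and 70.2 CPM in myoblasts, 208 and 225 CPM in myotubes and 96.9 and 89.9 CPM in reserve cells. It rose 2.92-fold in myotubes over myoblasts (1.55 ± 0.08, edgeR adjusted p = 4e-07). In reserve cells Sucla2 and Idh3g were the genes of the cycle called as higher. The rise of Sucla2 there was 0.33 ± 0.08, and that call was lost without myoblast replicate 2 (adjusted p = 0.0684) or reserve cell replicate 1 (adjusted p = 0.0577).

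Succinyl-CoA synthetase pairs a common alpha subunit, encoded by Suclg1, with an ADP-forming or a GDP-using beta subunit. The latter, encoded by Suclg2, fell from 36.2 and 37.4 CPM in myoblasts to 22 and 18.9 CPM in myotubes (−0.85 ± 0.11, edgeR adjusted p = 0.000161) and to 21.6 and 23.2 CPM in reserve cells (−0.72 ± 0.11, adjusted p = 0.000799). Suclg1 was at 68.3 and 74.2 CPM in myoblasts, 132 and 138 CPM in myotubes and 67.2 and 63.7 CPM in reserve cells. It was higher in myotubes than in either other group, by 0.92 ± 0.07 and 1.05 ± 0.07. The share of Sucla2 in the TPM of both beta subunits was 76.7% and 74.0% in myoblasts, 93.4% and 94.7% in myotubes and 87.1% and 85.5% in reserve cells, so the groups did not overlap.

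The isocitrate dehydrogenases split. Idh3g, the gamma subunit of the NAD-dependent enzyme of the cycle, was at 77.6 and 81.2 CPM in myoblasts, 196 and 183 CPM in myotubes and 93.4 and 95.2 CPM in reserve cells, a rise of 2.39-fold in myotubes (1.26 ± 0.06, edgeR adjusted p = 3.76e-07). Its rise in reserve cells, 0.25 ± 0.06, was lost without myoblast replicate 1 (adjusted p = 0.0745) or reserve cell replicate 2 (adjusted p = 0.0568). The catalytic alpha subunit, Idh3a, stood at 98.3 and 99.4 CPM, 138 and 141 CPM, and 83.4 and 79.6 CPM in the same order. The beta subunit, Idh3b, fell from 92.7 and 107.8 CPM in myoblasts to 44.4 and 54.6 CPM in myotubes, and stood at 78.3 and 88.0 CPM in reserve cells. So 2 subunits of this enzyme were higher and 1 lower in myotubes, and the fall of Idh3b was −1.02 ± 0.12 (edgeR adjusted p = 9.78e-05). Idh3b shares 5 of 3422 exon bases with Nop56 on the opposite strand.

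The NADP-dependent isocitrate dehydrogenases were both lower in myotubes. Idh1, the cytosolic enzyme, was at 205 and 201 CPM in myoblasts, 75.5 and 73.3 CPM in myotubes and 200 and 184 CPM in reserve cells. Myotubes were 2.73 times lower than myoblasts (−1.45 ± 0.06, edgeR adjusted p = 1.3e-07), while the difference between reserve cells and myoblasts had a 95% interval of −0.22 to 0.05. Idh2, the mitochondrial enzyme, was lower in both other groups than in myoblasts, from 185 and 181 CPM in myoblasts to 64.6 and 72 CPM in myotubes (−1.42 ± 0.07, adjusted p = 3.63e-07) and to 98.8 and 102 CPM in reserve cells (−0.87 ± 0.07, adjusted p = 1.76e-05). The share of Idh2 in the TPM of Idh1 and Idh2 was 54.2% and 53.7% in myoblasts, 52.6% and 55.8% in myotubes, and 39.3% and 42% in reserve cells, where both libraries lay below all others.

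Cs, the entry enzyme of the cycle and a common marker of mitochondrial content, was at 466 and 476 CPM in myoblasts and 466 and 480 CPM in myotubes. The difference had a 95% interval of −0.08 to 0.09, and with library totals it became −0.27 (adjusted p = 0.000206). Reserve cells were lower, at 288 and 295 CPM, by −0.69 ± 0.04 against myoblasts (edgeR adjusted p = 2.34e-06). A small rise in myotubes beside a small fall in reserve cells was called for 4 other genes of the cycle, but not for Cs. Idh3a above was among the 4. Ogdh and Dlst encode the dehydrogenase and the succinyltransferase of the α-ketoglutarate dehydrogenase complex. Ogdh was at 229 and 229 CPM in myoblasts, 259 and 264 CPM in myotubes and 183 and 180 CPM in reserve cells, and Dlst at 216 and 215 CPM, 255 and 275 CPM, and 195 and 193 CPM. Mdh2 stood at 270 and 282 CPM, 348 and 324 CPM, and 229 and 233 CPM. In each of these the myotubes were highest and the reserve cells lowest, without overlap.

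The sizes were modest. In myotubes over myoblasts Idh3a rose by 0.50 ± 0.06, Dlst by 0.30 ± 0.05, Mdh2 by 0.28 ± 0.05 and Ogdh by 0.19 ± 0.04. In reserve cells the values were −0.28 ± 0.06, −0.15 ± 0.05, −0.26 ± 0.05 and −0.34 ± 0.04 in the same order. With library totals Idh3a kept its rise in myotubes, whereas Dlst, Mdh2 and Ogdh did not pass and Ogdh changed sign (−0.08, adjusted p = 0.114). For Dlst, the fall in reserve cells was lost without any 1 of the 4 libraries compared, with adjusted p from 0.11 to 0.143. The differences between myotubes and reserve cells were 0.77 ± 0.06 for Idh3a, 0.54 ± 0.05 for Mdh2, 0.53 ± 0.04 for Ogdh and 0.45 ± 0.05 for Dlst. They passed in edgeR with adjusted p from 1.26e-05 to 0.000101. These genes were grouped by their opposite calls against myoblasts, so that pass is no separate support.

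Of the remaining genes of the cycle, Fh1, the fumarate hydratase, rose 1.38-fold in myotubes over myoblasts, a call that library totals ended (adjusted p = 0.083). Aco1, the cytosolic aconitase that also acts as an iron sensor, was lower in myotubes than in reserve cells (−0.29 ± 0.07, edgeR adjusted p = 0.00794). It did not pass against myoblasts in either group, but with library totals it passed as lower in myotubes (−0.41, edgeR adjusted p = 0.000928). Mdh1, the cytosolic malate dehydrogenase, had replicates too far apart to rank the groups. It stood at 4.67 and 22.3 CPM in myoblasts, 45.5 and 13.6 CPM in myotubes and 34.0 and 62.4 CPM in reserve cells. It did not pass in any comparison, with a 95% interval of −0.53 to 2.71 between myotubes and myoblasts. Without myoblast replicate 2 it passed as higher in myotubes (2.64, adjusted p = 0.0249) and in reserve cells (3.36, adjusted p = 0.0156), and 4 other alternatives called it as higher in reserve cells, with adjusted p from 0.0302 to 0.0478.

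**Figure D4:**
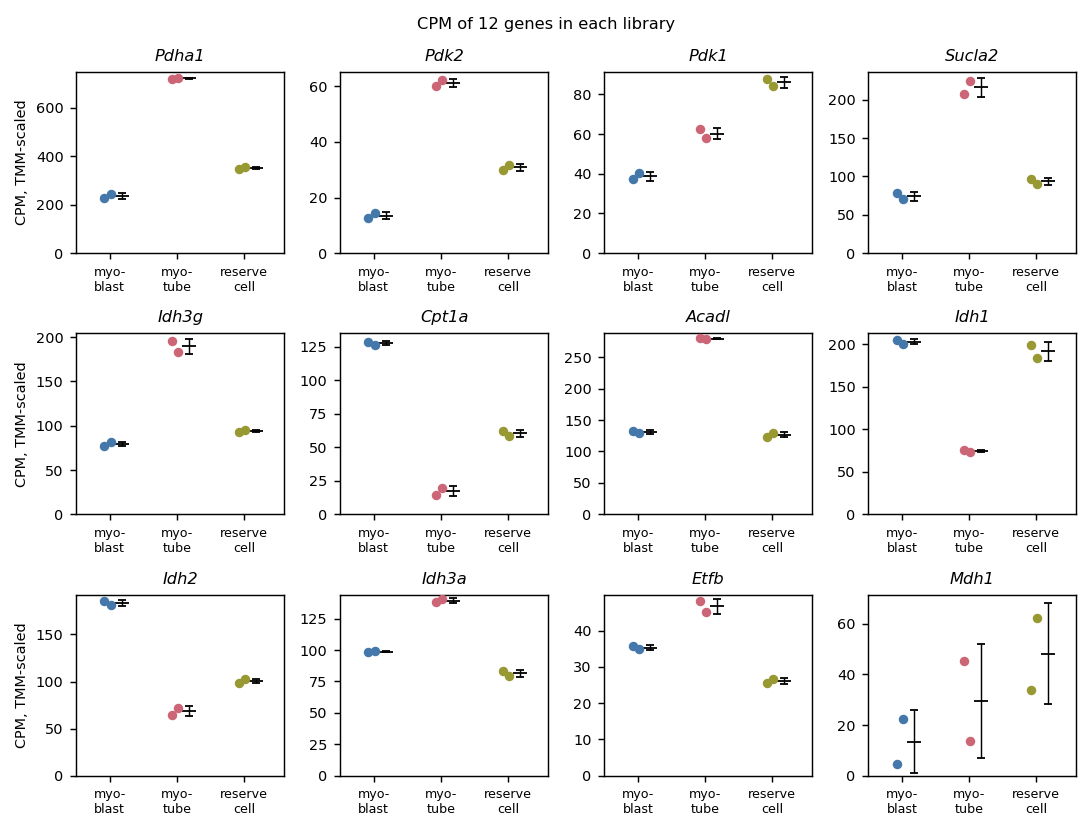
CPM (vertical axis, from 0) of 12 of the genes in each library, with the mean and SD of the 2 libraries of a group beside the points. Pdha1, Pdk2, Sucla2, Idh3g and Acadl are highest in myotubes, Pdk1 is highest in reserve cells, Cpt1a and Idh1 are lowest in myotubes, and the points of Mdh1 overlap between groups.

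The carnitine shuttle held the largest fall of the 42 genes. Cpt1a, the carnitine palmitoyltransferase of the outer membrane that controls the entry of long fatty acids, was at 129 and 126 CPM in myoblasts, 14.8 and 19.9 CPM in myotubes and 62.1 and 58.6 CPM in reserve cells. Myoblasts were highest, myotubes lowest, and no group overlapped another. The fall was −2.87 ± 0.13 in myotubes (edgeR adjusted p = 1.98e-07) and −1.08 ± 0.12 in reserve cells (adjusted p = 0.00011), and myotubes lay −1.79 ± 0.13 below reserve cells.

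Adult skeletal muscle uses the Cpt1b form of this enzyme, but Cpt1b stayed near the limit of detection. It had 13 and 9 counts for myoblasts, 5 and 29 counts for myotubes and 9 and 41 counts for reserve cells. It did not pass in any comparison, and its difference between myotubes and myoblasts had a 95% interval of −1.32 to 3.0. On the same strand Cpt1b shares 2744 of its 3372 exon bases with a readthrough gene model, Gm44502, to which 295 and 201 counts were assigned in myoblasts, 78 and 96 in myotubes and 200 and 114 in reserve cells. Reads of the shared exons cannot be told apart, so the Cpt1b level is uncertain. The share of Cpt1b in the TPM of both forms was 1.59% and 0.670% in myoblasts, 7.45% and 11.8% in myotubes, and 2.33% and 7.13% in reserve cells. This share rests on few counts of Cpt1b, and Cpt1a changed in its denominator.

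In the inner membrane part of the shuttle, Slc25a20 moved the other way from Cpt1a in myotubes, while the rise of Cpt2 there was uncertain. Slc25a20, the carnitine-acylcarnitine exchanger, rose from 14.1 and 16.0 CPM in myoblasts to 37.9 and 31.2 CPM in myotubes (1.2 ± 0.13, edgeR adjusted p = 6.93e-05), and it stood at 18.6 and 18.4 CPM in reserve cells. Cpt2, the palmitoyltransferase on the matrix side, was at 32.6 and 29.1 CPM, 35.7 and 42.4 CPM, and 29.3 and 26.2 CPM. Its rise in myotubes over myoblasts was 0.34 ± 0.11 (edgeR adjusted p = 0.0268), and DESeq2 gave an adjusted p of 0.0697. With library totals it was 0.063 (edgeR adjusted p = 0.642), and without the filter on low counts 0.31 (edgeR adjusted p = 0.0581). That call for Cpt2 was also lost without myoblast replicate 2 (adjusted p = 0.186) or myotube replicate 2 (adjusted p = 0.21). Per length, the 4 genes summed to 132 and 127 TPM in myoblasts, 74.8 and 76.4 TPM in myotubes and 92.4 and 89.5 TPM in reserve cells.

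Acyl-CoA dehydrogenases take the opening step of each round and differ in the chain length they accept. In myotubes 3 of 4 were higher and 1 lower than in myoblasts, and all 4 were higher than in reserve cells. Among all genes tested, 32.6% were called as higher and 32.7% as lower in myotubes against myoblasts. For myotubes against reserve cells these shares were 27.2% and 28.4%. Acadl, the long-chain enzyme, was at 133 and 129 CPM in myoblasts, 280 and 279 CPM in myotubes and 124 and 129 CPM in reserve cells. It rose 2.13-fold over myoblasts (1.09 ± 0.05, edgeR adjusted p = 2.63e-07), and reserve cells and myoblasts overlapped, with a 95% interval of −0.17 to 0.07. Acadvl, for very long chains, and Acads, for short chains, rose 1.76-fold and 1.62-fold in myotubes, and in reserve cells their differences from myoblasts had 95% intervals of −0.16 to 0.12 and −0.25 to 0.19. Acadm, for medium chains, was the exception, with 124 and 120 CPM in myoblasts, 90.0 and 95.5 CPM in myotubes and 68.0 and 64.9 CPM in reserve cells. It was lower in both other groups than in myoblasts (−0.40 ± 0.07 and −0.88 ± 0.07, edgeR adjusted p = 0.000977 and 1.8e-05). Acadvl shares 1151 of 2686 exon bases with Dvl2 on the opposite strand, whose counts were lowest in myotubes (1143 and 1813 for myoblasts, 528 and 573 for myotubes, 1517 and 1250 for reserve cells).

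Of the 5 genes for the later steps of each round, 3 were higher and 1 lower in myotubes than in myoblasts. In reserve cells 2 were higher and 2 lower. Of all genes tested, 32.6% were higher and 32.7% lower in myotubes, and 24.3% and 21.8% in reserve cells. Hadha and Hadhb encode the alpha and beta subunits of the mitochondrial trifunctional protein, which takes long-chain intermediates through hydration, dehydrogenation and thiolysis. Hadha was at 163 and 153 CPM in myoblasts, 312 and 315 CPM in myotubes and 183 and 186 CPM in reserve cells. Hadhb stood at 60.0 and 60.5 CPM, 118 and 118 CPM, and 78.9 and 78.6 CPM. Both subunits had the same order of groups without overlap, and both rose in myotubes over myoblasts, 1.99-fold and 1.96-fold (0.99 ± 0.05 and 0.97 ± 0.06, edgeR adjusted p = 4e-07 and 2.39e-06). In reserve cells Hadha was higher by 0.23 ± 0.05 and Hadhb by 0.39 ± 0.06, and the call of Hadha was lost without myoblast replicate 2 (adjusted p = 0.0581).

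The genes of these subunits are neighbours on chromosome 5 and are transcribed away from each other. In GENCODE M21 the outermost start of Hadha, on the minus strand, is at 30155162 and that of Hadhb, on the plus strand, at 30155248, so 85 bases lie between them. That stretch is shown because the pair moved together, and it is given on the plus strand of GRCm38.p6 from RefSeq, chr5:30155163-30155247.
Hadha to Hadhb: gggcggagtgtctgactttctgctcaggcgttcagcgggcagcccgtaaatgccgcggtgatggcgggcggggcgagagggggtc

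Acaa2, the thiolase for medium and long chains, rose 1.57-fold in myotubes over myoblasts (0.65 ± 0.06, edgeR adjusted p = 2.25e-05), and in reserve cells its difference had a 95% interval of −0.06 to 0.22. Hadh, the hydroxyacyl-CoA dehydrogenase for shorter chains, was at 56.2 and 53.7 CPM in myoblasts, 65.5 and 54.6 CPM in myotubes and 41.0 and 39.7 CPM in reserve cells. Only its fall in reserve cells (−0.45 ± 0.09) and its difference between myotubes and reserve cells (0.57 ± 0.10) passed, with edgeR adjusted p of 0.00528 and 0.00108. Without myotube replicate 2, Hadh also passed as higher in myotubes than in myoblasts (0.24, adjusted p = 0.0381). Acat1, a thiolase of ketone body and isoleucine metabolism as well, fell from 70.2 and 68.7 CPM in myoblasts to 40.7 and 40.0 CPM in myotubes (−0.78 ± 0.07, adjusted p = 1.4e-05) and to 36.5 and 34.8 CPM in reserve cells (−0.96 ± 0.07, adjusted p = 9.52e-06).

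The auxiliary enzymes Eci1 and Decr1 are an isomerase and a reductase that handle double bonds of unsaturated fatty acids. Both were called as higher in myotubes than in either other group, but the calls of Decr1 did not hold in every alternative. Eci1 was at 23.8 and 18.4 CPM in myoblasts, 33.5 and 33.1 CPM in myotubes and 19.6 and 17.4 CPM in reserve cells, a rise of 1.58-fold over myoblasts (0.66 ± 0.14, edgeR adjusted p = 0.00323). The rise of Decr1 over myoblasts was smaller, 0.29 ± 0.08 (adjusted p = 0.0119). It was lost in DESeq2 (adjusted p = 0.084) and with library totals (0.0097, edgeR adjusted p = 0.922). It was also lost without myoblast replicate 1 (0.24) or myotube replicate 1 (0.25). Against reserve cells the rise of Decr1 was 0.29 ± 0.08 (edgeR adjusted p = 0.0142). That call was lost in DESeq2 (adjusted p = 0.076) and with library totals (0.083, edgeR adjusted p = 0.405). Leaving out myotube replicate 1 (0.25) or reserve cell replicate 1 (0.25) ended it as well.

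Electrons from the acyl-CoA dehydrogenases pass through the electron transfer flavoprotein, encoded by Etfa and Etfb, to the membrane oxidoreductase Etfdh. Etfb was at 35.7 and 34.8 CPM in myoblasts, 48.1 and 45.1 CPM in myotubes and 25.6 and 26.7 CPM in reserve cells. Myotubes were highest and reserve cells lowest without overlap, with a rise of 0.40 ± 0.08 in myotubes and a fall of −0.43 ± 0.08 in reserve cells (edgeR adjusted p = 0.00178 and 0.00232). With library totals the rise in myotubes did not pass (0.13, adjusted p = 0.191). On the same strand Etfb shares 617 of 1164 exon bases with Gm45233, which had 14 and 9 counts in the myotubes and at most 1 count in any other library. Its partner Etfa passed only between myotubes and reserve cells (0.41 ± 0.09, edgeR adjusted p = 0.00524), a call that also ended with library totals. It passed as lower in reserve cells than in myoblasts without reserve cell replicate 1 (−0.33, adjusted p = 0.0421). Etfdh was higher in myotubes (0.57 ± 0.07, adjusted p = 0.000121), and its small rise in reserve cells (0.23 ± 0.07, adjusted p = 0.0242) was lost in DESeq2 (adjusted p = 0.109) and without any 1 of the 4 libraries compared.

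The transcript with the largest share of a gene's TPM was the same in all 6 libraries for 38 of the 42 genes. The exceptions were Idh3a, Acadvl, Hadhb and Cpt1b, whose counts were few. In Acadvl, transcript Acadvl-202 held 51.0% and 86.2% of the gene's TPM in myoblasts and 92.2% and 96.4% of it in myotubes, and it was at 0% in both libraries of reserve cells. Acadvl-201 held 29.9% and 8.18% in myoblasts, 0% in both myotube libraries, and 67.5% and 82.8% in reserve cells. These coding transcripts are 2168 and 2020 bases long, and the shares are estimates from short reads that overlap in most exons. In Idh3a the leading transcript differed between the myotube libraries themselves (Idh3a-205 at 64.5% and 26.5%), and in Hadhb the share of Hadhb-203 was 44.9% and 75.5% for reserve cells, so no order of groups was read from these. Dlst kept Dlst-201 in the lead, at 85.6% and 87.6% in myotubes and 40.5% and 41.5% in reserve cells, but the myoblast libraries stood apart at 81.7% and 40.9%.

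RefSeq promoters of GRCm38.p6, from 250 bases before to 50 bases after a start, were at hand for 37 of the 42 genes, as 45 windows. Those without an entry were Acaa2, Acat1, Cpt1b, Decr1 and Idh3a. Each window was searched on both strands for 4 motifs. TNAAGGTCA, a core element of estrogen-related receptors, was in 0 of the 45 windows and in 1.28% of all 32851 windows of the table. GCGCATGCG, the core of the site of the factor NRF1, was in 4 of 45 windows (8.89%), from 3 genes, and in 1.75% of all. CCGGAAGT, bound by ETS factors such as GABP, was in 3 of 45 (6.67%) and 3.89% of all, and CAGCTG, an E-box of myogenic factors, in 3 of 45 (6.67%) and 16.3% of all. No gene held more than 1 of the motifs, so none overlapped another. A match is a description and says nothing of binding.

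The stretches with an NRF1 core are shown because the genes that hold one differed in direction. Etfdh was higher in myotubes than in myoblasts, Acadm was lower, and Ogdh was slightly higher before library totals reversed it. They run 5′ to 3′ on the strand of the gene, with the motif in capitals. For Acadm the match is on the opposite strand, so its capitals are the reverse complement of the motif. They lie at chr3:79628861-79628920 on the minus strand for Etfdh, where matches on both strands overlap, at chr3:153944769-153944827 on the minus strand for Acadm, and at chr11:6292518-6292557 on the plus strand for Ogdh.
Etfdh: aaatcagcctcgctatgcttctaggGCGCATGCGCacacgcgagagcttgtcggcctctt
Acadm: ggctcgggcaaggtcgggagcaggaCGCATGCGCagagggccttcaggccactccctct
Ogdh: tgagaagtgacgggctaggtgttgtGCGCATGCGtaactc

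The E-box stretches are shown because they stand before Cpt1a, which had the largest fall, and before Pdk1 and Dld, which rose. They are at chr19:3323244-3323299 on the plus strand for Cpt1a, at chr2:71873032-71873087 on the plus strand for Pdk1, and at chr12:31351510-31351565 on the minus strand for Dld, with CAGCTG in capitals.
Cpt1a: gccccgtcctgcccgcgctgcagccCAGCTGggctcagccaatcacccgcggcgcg
Pdk1: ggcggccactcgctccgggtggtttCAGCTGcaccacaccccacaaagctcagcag
Dld: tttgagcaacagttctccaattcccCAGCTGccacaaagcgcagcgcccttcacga

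Genes next to these routes were counted in the same fit, and the counts of all these lists stand beside the shares of all genes tested. Those shares were 32.6% called as higher and 32.7% as lower in myotubes against myoblasts. They were 24.3% and 21.8% in reserve cells against myoblasts, and 27.2% and 28.4% in myotubes against reserve cells. Of 10 other enzymes and assembly factors of the TCA cycle, 8 were higher and 1 lower in myotubes than in myoblasts, 1 was higher and 1 lower in reserve cells, and 7 were higher and 1 lower in myotubes than in reserve cells. The succinate dehydrogenase genes Sdha, Sdhb, Sdhc and Sdhd were all higher in myotubes than in myoblasts, by 0.43, 0.70, 0.30 and 0.50.

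Of 8 genes for pyruvate entry and the reactivation or lipoylation of the dehydrogenases, 7 were higher in myotubes and 7 in reserve cells than in myoblasts, with none lower. Mpc1 and Mpc2 form the mitochondrial pyruvate carrier. Mpc1 was at 27.5 and 21.5 CPM in myoblasts, 62.4 and 59.1 CPM in myotubes and 34.3 and 28.8 CPM in reserve cells, and Mpc2 at 23.2 and 23.0 CPM, 66.9 and 60.0 CPM, and 34.2 and 37.4 CPM. Like the subunits of the pyruvate dehydrogenase complex, both were highest in myotubes, by 1.31 ± 0.13 and 1.46 ± 0.09 over myoblasts. Pdp1, a phosphatase that reactivates the complex, rose by 1.2 ± 0.09 (edgeR adjusted p = 4.89e-06), and Pcx, which carboxylates pyruvate to oxaloacetate, by 1.87 ± 0.08.

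Of 18 tested genes for fatty acid uptake, activation and lipolysis, 13 were higher and 4 lower in myotubes than in myoblasts, 12 were higher and 3 lower in reserve cells than in myoblasts, and 12 were higher and 5 lower in myotubes than in reserve cells. Cd36, a fatty acid translocase, was at 0.934 and 1.06 CPM in myoblasts, 99.6 and 92.8 CPM in myotubes and 16.6 and 13.8 CPM in reserve cells (6.57 ± 0.15 in myotubes over myoblasts, edgeR adjusted p = 4.02e-09). Fabp3, the heart and muscle fatty acid binding protein, stood at 1.81 and 2.86 CPM, 119 and 115 CPM, and 22.8 and 27.0 CPM (5.62 ± 0.17). The long-chain acyl-CoA synthetase gene Acsl1 rose from 15.7 and 18.1 CPM in myoblasts to 99.8 and 104 CPM in myotubes (2.59 ± 0.09). These rises were larger than that of any of the 42 genes. The 4 genes of the list called as lower were Lpl, Fabp5, Acsl5 and Slc27a1, named after their values were seen, and each fell by at least 2-fold. Lpl, the lipoprotein lipase, went from 32.1 and 34.1 CPM in myoblasts to 3.56 and 3.78 CPM in myotubes (−3.17 ± 0.14, edgeR adjusted p = 2.24e-07), and stood at 11.1 and 11 CPM in reserve cells.

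The other lists differed from each other, and the first leaned to higher levels in myotubes. Of 18 tested further mitochondrial acyl-CoA enzymes 14 were higher and 2 lower in myotubes than in myoblasts, and 7 were higher and 4 lower in reserve cells. Of 15 peroxisomal genes of fatty acid oxidation 5 were higher (33.3%) and 4 lower (26.7%) in myotubes. In reserve cells 4 of them were higher (26.7%) and 2 lower (13.3%). These shares lay near or below those of all genes tested. Of 5 tested genes of ketone body metabolism 2 were higher and 2 lower in myotubes, with Oxct1, which lets a tissue burn ketone bodies, at −0.73 ± 0.04. Anaplerosis and the exchange of cycle intermediates had 4 higher and 9 lower of 16 tested in myotubes against myoblasts, among them Slc25a1, the citrate exporter, at −1.70 ± 0.08, and Slc25a10, the dicarboxylate carrier, at −2.23 ± 0.12.

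Of 16 tested transcriptional regulators of oxidative genes 7 were higher and 6 lower in myotubes than in myoblasts, and 3 were higher and 5 lower in reserve cells. Ppargc1a, a coactivator of mitochondrial genes, was at 1.87 and 3.09 CPM in myoblasts, 7.11 and 8.72 CPM in myotubes and 2.77 and 3.0 CPM in reserve cells, and it rose in myotubes by 1.67 ± 0.32 (edgeR adjusted p = 0.00198). Esrra, an estrogen-related receptor, was higher by 0.85 ± 0.23 (adjusted p = 0.0117), with its myotube libraries apart at 30.2 and 53.5 CPM. Hif1a, the hypoxia-inducible factor, was lower in myotubes (−1.66 ± 0.07) and in reserve cells (−0.64 ± 0.07) than in myoblasts. Ppara, a receptor for fatty acids, did not pass (adjusted p = 0.0716) and stayed at or below 1.22 CPM in every library. Esrrg was too low to be tested, with 0 CPM in both myoblast libraries and 1.92 and 0.523 CPM in myotubes.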

How the data were processed

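The authors mapped paired-end reads of C2C12 RNA to mm10 with HISAT2, filtered them with SAMtools and quantified transcripts with StringTie. They deposited an estimated count per transcript and library, in whole numbers and not scaled for depth. The sources used here give neither program versions nor the annotation release. Another deposited table of the same 6 libraries, called normalized, was not used here.

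The estimated counts were summed to genes through GENCODE M21, which paired 141374 of 142604 transcripts. The other 1230 held 0.375% to 0.872% of a library's counts. The 3 group comparisons were fitted with edgeR 4.0.16 in R 4.3.3 on all 6 libraries (filterByExpr with a minimum count of 10, TMM, glmQLFit and glmQLFTest, Benjamini-Hochberg over 15467 genes, threshold 0.05, two-sided). The biological coefficient of variation was 12.9%. DESeq2 1.42.0, named in the study's methods, and 13 other alternatives were run. The procedure was also run on simulated data. Few genes were changed there, unlike in these data, so that run does not check the scaling of the libraries. TPM used annotated transcript lengths. Intervals are 95%.

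The 42 genes, the companion and marker lists and the motifs were chosen with earlier results of these data known. All 42 genes could be named. Values per library are given for gene pairs, for the 5 largest and 5 smallest differences in each comparison and for genes called in opposite directions, and companion genes by the smallest adjusted p or from a short list. Slc25a20, Cpt2, Hadha, Hadhb and Eci1 were given beyond this after their values were seen. Of the companion genes on the short list, 1 is not reported here.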

Additional observations from a re-analysis of the deposited data

Results flagged for a closer look

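Among the 42 genes, 5 were called as higher in myotubes than in myoblasts and as lower in reserve cells than in myoblasts. The same contrast with myoblasts thus took opposite directions in the cells that had spent 7 days in low serum. Of all genes tested, 32.6% were called as higher in myotubes and 21.8% as lower in reserve cells. The share with both calls was not counted, so whether 5 of 42 is unusual cannot be told. The difference between myotubes and reserve cells was fitted as its own comparison in edgeR. Passing there was part of the rule that flagged these 5 genes, so that pass is no further support. The log2 fold change of that comparison was 0.77 for Idh3a, 0.53 for Ogdh, 0.45 for Dlst, 0.54 for Mdh2 and 0.83 for Etfb. Scaled by library totals alone, the differences between myotubes and myoblasts did not pass for Ogdh, Dlst, Mdh2 and Etfb. Groups of 2 libraries are too small for a test of single outlying libraries.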

How the results depend on the processing

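The counts of called genes stayed within 1.5 times their values in all 14 alternatives. Genes higher in myotubes than in myoblasts numbered 20 (library totals) to 28 (only the 4 libraries compared), beside 27. In single genes, 1666 of 1761 recomputed values kept sign and call, 48 lost the call, 18 gained it and 29 changed sign. Of these 29, from 12 genes, 27 were called in neither setting. The other 2 were between myotubes and myoblasts with library totals, which moved the median of all genes tested to −0.27. Cs went from 0.0058 to −0.27 (adjusted p = 0.000206) and Ogdh from 0.19 to −0.084 (adjusted p = 0.114). Of the called genes, 28 of 35 (myotubes vs myoblasts), 19 of 25 (reserve cells vs myoblasts) and 33 of 38 (myotubes vs reserve cells) kept their call in every alternative. Among genes not called, 1 of 7, 14 of 17 and 2 of 4 stayed so in every alternative, in the same order. Without division by length, Pdk1 held a mean of 33.5% of the kinases in myoblasts and Pdk3 27.6%, while in myotubes Pdk2 held 37.3% and Pdk1 36.8%. Leaving out the mitochondrially encoded genes changed no call of the 42 genes. With the replicate number as a block, 125 of 126 calls were the same, and Idh3b passed as lower in reserve cells (−0.27, adjusted p = 0.0166). No label says whether replicate numbers pair the samples. The differences between replicates were correlated across genes with r of 0.018, 0.058 and −0.040. These values come from a single pair of libraries a group, so they cannot settle it. With 2 libraries a group, the spread rests on all 6, and a group left with 1 library is assumed to vary like the others.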
